A study of Arabidopsis thaliana with 12 samples.

Results

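Plastid ribosomal protein genes are nuclear genes whose products are imported into plastids and built into the plastid ribosome. That ribosome resembles the bacterial one and translates the proteins still encoded in plastid DNA, among them core subunits of the photosystems and the large subunit of Rubisco. Its small subunit binds the messenger and decodes it, and its large subunit forms the peptide bond and holds the tunnel through which the new chain leaves. Nuclear and plastid genes both supply its proteins, so its assembly draws on both genomes.

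The members were the features of an Arabidopsis thaliana array that the platform annotation assigned to exactly 1 gene, where that gene encodes a nuclear plastid ribosomal protein. They were 6 of the 691 distinct genes with a feature of their own, 2 for the small subunit and 4 for the large. The small subunit members were AT1G64510 (PRPS6) and AT3G13120 (PRPS10). The large subunit members were AT4G01310 (PRPL5), AT3G54210 (PRPL17), AT1G29070 (PRPL34) and AT5G65220 (PRPL29). The protein names are general knowledge, since the gene table used here lists these 6 genes by locus only. Of 41 nuclear genes listed for this ribosome, 14 were for the small and 27 for the large subunit. Those beyond the 6 members had no feature assigned to them here, alone or with other genes. The annotation gave no gene for 1877 of the 3439 features in the table. A listed gene may lie on one of these, so most genes of the ribosome could not be identified here.

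Total RNA of the pete1 pete2 double mutant was compared with that of wild-type (WT) plants. Both were ecotype Columbia 0 and grown on MS, a culture medium of mineral salts. The double mutant is without either plastocyanin isoform. Plastocyanin is a small copper protein that ferries electrons to photosystem I in the thylakoid lumen. The labels give no alleles, tissue, age or number of plants, and 0 features were assigned to PETE1 or PETE2, so the targeted genes gave no check of the labels.

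The table held 3439 features in 12 columns of linear intensity in relative units, 6 per genotype. A column summed to between 3493 and 3778 units, and between 170 and 264 of its features were listed at 0. Columns 1 and 2, 3 and 4, and 5 and 6 of a genotype differed by a median absolute log2 difference of only 0.0997 to 0.139, against 0.310 to 0.562 for other columns of the same genotype. Each such pair was averaged and counted once, giving n = 3 pairs per genotype. Nothing in the labels ties samples to separate plants, so the p-values reflect only the spread of these samples, and that spread may be technical. Of the 7 leaf markers listed, 1 had assigned features, and only ones shared with another gene. Of the 7 root markers, 0 had an assigned feature, so the tissue could not be checked in full. In tissue RNA of this kind, fewer green cells and less transcript per cell cannot be told apart.

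No plastid ribosomal protein gene with any signal here was called different between pete1 pete2 and WT, and each 95% interval included no change. PRPS10 had the highest fold change in pete1 pete2, 1.65 times WT (95% interval 0.800 to 3.39), and PRPL34 the lowest, 0.612 times WT (0.212 to 1.76). PRPL17 had the narrowest interval, 1.19 times WT (0.896 to 1.58). The signal of PRPL29 was listed at 0 in every column. With limma and Benjamini-Hochberg adjustment over 3438 tested features at 0.05, 0 of the 6 members were called in either direction. In the same comparison 0.0291% of all tested features were called, all of it 1 feature that was higher in pete1 pete2 and has no gene name here, and 0% were called lower. At an unadjusted p under 0.05 there were 0 members, where 7.3% of all tested features reached that level.

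**Figure D1:**
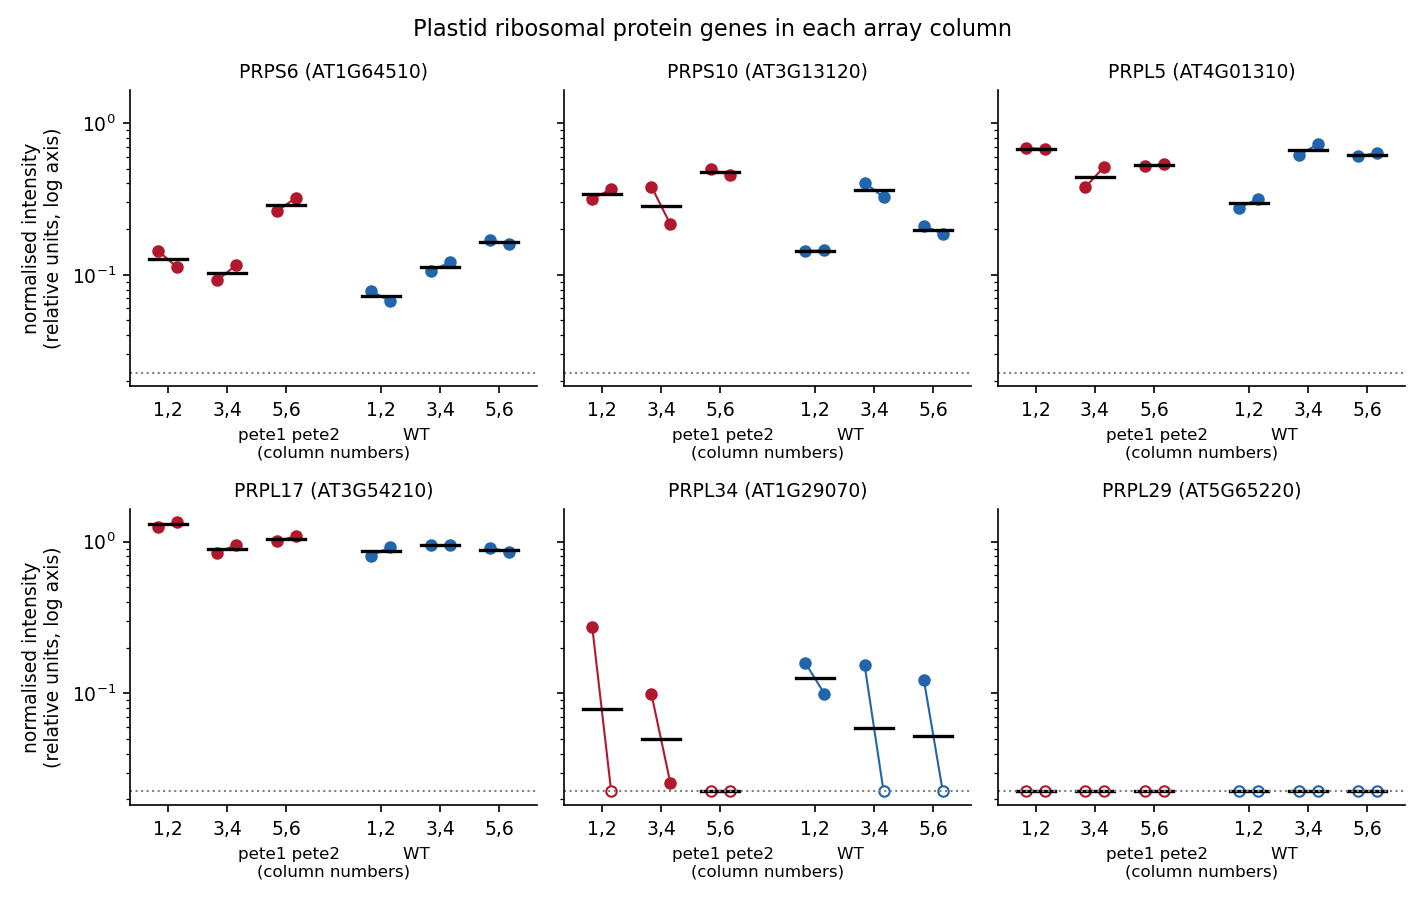
Normalised intensity of each gene (relative units, log axis) in every array column, pete1 pete2 in red and WT in blue, with the 2 columns of a pair joined. Black bars are pair means, open circles are columns listed at 0 and the dotted line is the lowest value allowed (0.0225). In PRPS6, PRPS10, PRPL5 and PRPL17 the 2 genotypes overlap, PRPL34 moves between the floor and measured levels within pairs, and PRPL29 sits at the floor.

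Values below are normalised intensities after quantile normalization of the columns unless they are called deposited. The signal of 1 feature was not set against that of another as a transcript level, because neither probe length nor labelling is stated in the labels.

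The small subunit members come first. PRPS6 corresponds to the bacterial protein S6, which in Escherichia coli sits on the platform of the small subunit next to S18. Its normalised intensity was 0.127, 0.104 and 0.290 in the pete1 pete2 pairs 1 and 2, 3 and 4, and 5 and 6. The WT pairs, in the same order, had 0.0723, 0.113 and 0.164. The pair 5 and 6 was the highest of its genotype on both sides, and the WT range overlapped with that of pete1 pete2. The mean was 0.174 ± 0.102 in pete1 pete2 and 0.117 ± 0.0462 in WT (SD, n = 3 each), a log2 fold change of 0.50 (SE 0.51, limma adjusted p = 0.992). Without pete1 pete2 columns 5 and 6 the log2 fold change was 0.049, and without WT columns 1 and 2 it was 0.20. Without pete1 pete2 columns 3 and 4 it was 0.82, the highest with a pair left out, so its size followed single pairs.

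The deposited intensities of PRPS6 were closer together than the normalised ones. They ran over the 6 columns from 0.0797 through a median of 0.149 to 0.193 in pete1 pete2, against 0.0974, 0.115 and 0.188 in WT. The log2 fold change of these unscaled values was 0.080. The columns of pete1 pete2 numbered 5 and 6 had the lowest medians over all features in the table, 0.343 and 0.341. PRPS6 was a dim feature, at the 14.4th percentile of all tested features in pete1 pete2 and lower still in WT.

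PRPS10 corresponds to the bacterial protein S10 of the small subunit head, which in Escherichia coli is also the transcription antitermination factor NusE. It measured 0.341, 0.286 and 0.475 in the pete1 pete2 pairs, against 0.144, 0.363 and 0.198 in the WT pairs. All pete1 pete2 pairs lay above WT pairs 1 and 2 and 5 and 6, but WT pair 3 and 4 lay above 2 of them. The mean was 0.367 ± 0.0970 in pete1 pete2 and 0.235 ± 0.114 in WT (SD, n = 3 each), with a log2 fold change of 0.72 (SE 0.40, limma adjusted p = 0.938).

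The difference in PRPS10 kept its sign in all 29 alternatives in which it could be fitted, and ranged from 0.41 with the values as deposited to 1.09 without WT columns 3 and 4. Several of these alternatives changed only the test and not the fold change, so the sign could not turn in them. The 2 columns of pete1 pete2 pair 3 and 4 disagreed for this gene, with deposited intensities of 0.511 and 0.299. That is an absolute log2 difference of 0.83 after normalization, where the median of its 6 pairs was 0.20. In the deposited values, 6 of 6 pete1 pete2 columns and 6 of 6 WT columns were above 0.

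The large subunit members begin with PRPL5. It corresponds to bacterial L5, which in Escherichia coli binds 5S rRNA in the central protuberance. PRPL5 measured 0.680, 0.443 and 0.528 in the pete1 pete2 pairs and 0.296, 0.667 and 0.620 in the WT pairs. The WT pair 1 and 2 stood below the other 5 pairs. The means were 0.550 ± 0.120 in pete1 pete2 and 0.528 ± 0.202 in WT (SD, n = 3 each), a log2 fold change of 0.13 (SE 0.38, limma adjusted p = 1). The sign of this value turned with 1 pair: without WT columns 1 and 2 it was -0.25, and it was -0.14 with the values as deposited.

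PRPL17 corresponds to bacterial L17, a protein at the rim of the exit tunnel of the large subunit. Its pairs measured 1.30, 0.898 and 1.05 in pete1 pete2 and 0.863, 0.950 and 0.883 in WT. The SD of the log2 values was 0.27 over the pete1 pete2 pairs and 0.072 over the WT pairs. The mean was 1.08 ± 0.202 in pete1 pete2 and 0.899 ± 0.0454 in WT (SD, n = 3 each), with a log2 fold change of 0.25 (SE 0.16, limma adjusted p = 0.989). Of the pete1 pete2 pairs, 3 and 4 fell inside the WT range and the other 2 lay above it.

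The feature of PRPL17 was also the brightest of the members, at the 81.4th percentile in pete1 pete2 and the 74.9th in WT. Its deposited values ran from 0.822 through a median of 1.05 to 1.21 in pete1 pete2, against 0.871, 0.962 and 1.09 in WT. Deposited, the pete1 pete2 columns thus spanned the whole WT range, and the log2 fold change was 0.075.

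PRPL34 corresponds to bacterial L34, among the smallest and most basic ribosomal proteins. It was listed at 0 in 3 of 6 pete1 pete2 columns and in 2 of 6 WT columns. Deposited intensities of the pete1 pete2 columns 1 to 6 were 0.209, 0, 0.153, 0.0430, 0 and 0. Those of the WT columns 1 to 6 were 0.204, 0.133, 0.149, 0, 0.140 and 0. In 1 of 3 pete1 pete2 pairs and 2 of 3 WT pairs, 1 column was at 0 and its partner was not, and both columns of pete1 pete2 pair 5 and 6 were at 0.

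The normalised pair means of PRPL34 were 0.0785, 0.0502 and 0.0225 in pete1 pete2, the last being the floor itself, against 0.126, 0.0587 and 0.0526 in WT. The log2 fold change was -0.71 (SE 0.59, limma adjusted p = 0.989). Its size followed single columns: it was -1.31 without pete1 pete2 column 1 and -0.099 without pete1 pete2 column 2. The median absolute log2 difference between the 2 columns of a pair was 2.20 for this gene, far above the 0.22 of the dimmest 25% of features, so the signal was not measured repeatably at this level.

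PRPL29 corresponds to bacterial L29, which lies at the tunnel exit in Escherichia coli. All 6 pete1 pete2 columns and all 6 WT columns listed it at 0, and it was among 95 features in the table of which that was true. No fold change is given for it. The feature with the next number, 1082, had mean normalised intensities of 4.51 in pete1 pete2 and 5.93 in WT, well above the floor.

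**Figure D2:**
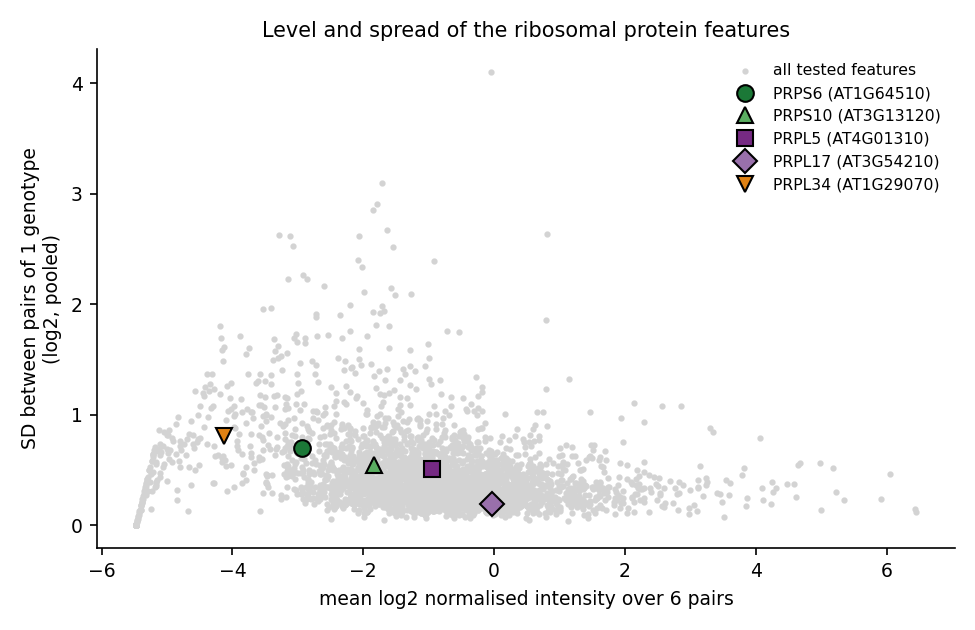
Pooled SD between pairs of a genotype (log2) against mean log2 normalised intensity, with all tested features in grey and the 5 measured ribosomal protein genes as symbols. PRPL34 and PRPS6 are dim, with SDs of 0.81 and 0.70, and PRPL17 is the brightest and has an SD of 0.20.

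Precision differed between the members. The pooled SD between pairs of a genotype was 0.70 for PRPS6, 0.54 for PRPS10, 0.51 for PRPL5, 0.20 for PRPL17 and 0.81 for PRPL34 on the log2 scale. For comparison, all features with any signal were ordered by brightness and split into equal classes of 25%. The median SD was 0.53 in the dimmest class, which held PRPS6 and PRPL34, 0.40 in the next, which held PRPS10, 0.35 in the one above, which held PRPL5, and 0.33 in the brightest, which held PRPL17. PRPL17 was thus the only 1 of the 5 with less spread than the median of its class. The median absolute log2 difference between the 2 columns of a pair was 0.26 for PRPS6, 0.20 for PRPS10, 0.13 for PRPL5 and 0.11 for PRPL17, each below that gene's SD between pairs. For PRPL34 it was 2.20, above its SD between pairs. These are unlike measures, a difference between 2 single columns and an SD of pair means, so their sizes compare only roughly.

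**Figure D3:**
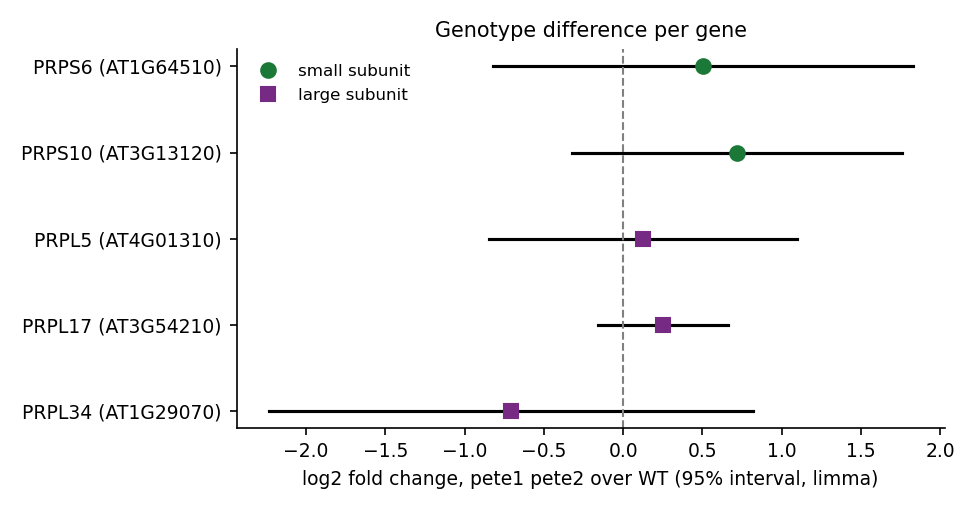
Log2 fold change of pete1 pete2 over WT with its 95% interval from limma, for small subunit genes (circles) and large subunit genes (squares). All 5 intervals include 0, and that of PRPL17 (-0.16 to 0.66) is the narrowest.

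As a group, 4 of the 5 genes with any signal had a positive log2 fold change and 1 a negative one, where 46.7% of the 3343 features with any signal were positive. Their median was 0.25, against -0.022 over those features, and their values ran from -0.71 to 0.72. None of the 6 had its 3 pete1 pete2 pairs all above or all below the 3 WT pairs, which was the case for 9.92% of all tested features, 5.56% above and 4.36% below. The intervals show what these samples could not separate: for PRPS10 the data allow a level in pete1 pete2 from 0.800 to 3.39 times that in WT, and for PRPL5 one from 0.556 to 2.14 times.

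Small and large subunit genes were then set against each other within each pair of columns, as the mean log2 value of PRPS6 and PRPS10 minus that of PRPL5, PRPL17 and PRPL34. Only the genotype difference of this value is read, since its level depends on the probes. It was -0.98, -0.66 and 0.68 in the pete1 pete2 pairs, against -1.64, -0.72 and -0.76 in the WT pairs. Pete1 pete2 pair 5 and 6 stood above all others, and WT pair 1 and 2 below. The mean was -0.32 ± 0.88 in pete1 pete2 and -1.04 ± 0.52 in WT (SD, n = 3 each), a difference of 0.72 in log2 that is the same size as the pooled SD of 0.72. It was 0.20 without pete1 pete2 columns 5 and 6, 0.43 without WT columns 1 and 2 and 1.04 without pete1 pete2 columns 1 and 2, so its size followed single pairs. Without PRPL34, whose signal came and went within pairs, the difference was 0.42 with a pooled SD of 0.45. The median log2 fold change was 0.61 over the 2 small subunit genes and 0.13 over the 3 large subunit genes, too few genes to describe either subunit.

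**Figure D4:**
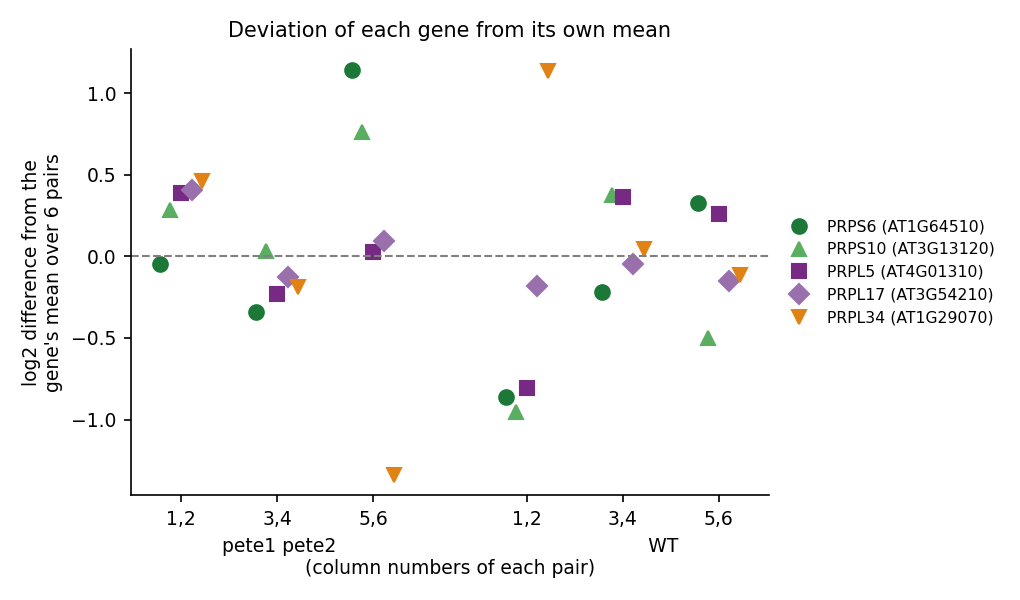
Log2 difference of each gene from its own mean over the 6 pairs, by pair, pete1 pete2 on the left and WT on the right. PRPS6, PRPS10 and PRPL5 share a low value in WT pair 1 and 2 (-0.86, -0.95 and -0.81), where PRPL34 is high (1.14).

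Across pairs the members did not share 1 pattern. In WT pair 1 and 2, PRPS6, PRPS10 and PRPL5 lay 0.86, 0.95 and 0.81 below their own means on the log2 scale, PRPL17 lay 0.18 below, and PRPL34 lay 1.14 above. In pete1 pete2 pair 5 and 6, PRPS6 and PRPS10 lay 1.14 and 0.76 above their means, PRPL5 and PRPL17 lay 0.025 and 0.095 above, and PRPL34 was at the floor. These are the pairs that lead the subunit difference. The closest 2 members in profile were PRPL5 and PRPL17, with a root mean square difference of 0.35 over the 6 pairs after each was centred on its mean, and the farthest were PRPS6 and PRPL34, with 1.34.

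The same measure was used to find the most alike of the 664 other genes with a feature of their own and some signal. AT1G50000 was nearest to PRPS6, at a root mean square difference of 0.11, while PRPS6 itself varied by 0.62 about its mean. AT2G23070 was nearest to PRPS10, at 0.25 where PRPS10 varied by 0.57. AT3G16310 was nearest to PRPL5, at 0.19 where PRPL5 varied by 0.42, and AT1G21660 was nearest to PRPL17, at 0.097 where PRPL17 varied by 0.20. AT1G10830 (Z-ISO), the zeta-carotene isomerase of carotenoid synthesis, was nearest to PRPL34, at 0.29 where PRPL34 varied by 0.75. The profile of PRPL34 rests in part on columns at the floor, so its nearest gene carries little meaning. The mean profile of the 5 members was nearest to AT1G18060, at 0.074, and to AT4G29540 (LpxA), at 0.088, in a search of 660 genes that left the 5 members out. In the searches for single members, which could have returned another member, none of the nearest genes was one. Other members were only a few of the 664 genes searched, so this says little about whether the members vary together. These are descriptions over 6 pairs that share arrays and scaling.

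Other steps of plastid translation had few assigned features, mostly shared ones. Of 11 plastid translation factors listed, 0 had a feature of their own and 2 were on shared features. Feature 425 covers AT1G17220 (FUG1), the plastid initiation factor that brings the first tRNA to the small subunit, together with AT4G11160. It measured 0.337, 0.320 and 0.433 in the pete1 pete2 pairs, against 0.171, 0.383 and 0.243 in the WT pairs, a log2 fold change of 0.52 (SE 0.33, limma adjusted p = 0.989). As in PRPS10, WT pair 3 and 4 lay among the pete1 pete2 values and the other WT pairs lay below them.

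AT2G24060 encodes an initiation factor of the third bacterial type, which keeps the subunits apart before initiation, and was on 2 shared features. Feature 2901, which also covers AT1G34360 and AT4G30690, measured 0.919, 0.767 and 0.662 in the pete1 pete2 pairs and 0.527, 0.673 and 0.558 in the WT pairs. Its log2 fold change was 0.41 (SE 0.17, limma adjusted p = 0.718), with WT pair 3 and 4 just above the lowest pete1 pete2 pair. Feature 4447, which it shares with AT4G30690 only, had a log2 fold change of 0.12 (SE 0.28).

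Of 12 plastid ribosome assembly genes listed, 1 had features of its own and 2 shared a feature. AT2G25870, the homologue of the bacterial rRNA processing enzyme YbeY, averaged 0.865 ± 0.328 in pete1 pete2 and 0.708 ± 0.239 in WT (SD, n = 3 each), a log2 fold change of 0.29 (SE 0.40, limma adjusted p = 1). Its 2 features gave 0.19 and 0.38. The feature shared by AT4G09730 (RH39) and AT3G06980 (RH50), RNA helicases that act on plastid rRNA, measured 3.56, 1.39 and 3.38 in the pete1 pete2 pairs, against 4.70, 2.98 and 3.31 in the WT pairs. Its log2 fold change was -0.49 (SE 0.44, limma adjusted p = 0.989), with pete1 pete2 pair 3 and 4 far below the rest. None of the 20 plastid transcription genes listed had an assigned feature. The same was so for 54 other genes whose symbol or synonym in the gene table resembles that of a ribosomal protein. That search by name can miss genes listed by locus only and take in genes of other kinds.

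The leaf marker RCA, Rubisco activase, was on 2 features shared with AT1G73110. Feature 665 measured 1.12, 0.980 and 1.35 in the pete1 pete2 pairs and 1.38, 1.39 and 1.59 in the WT pairs, a log2 fold change of -0.35 (SE 0.15, limma adjusted p = 0.776). All its pete1 pete2 values lay below all its WT values, as was so for 4.36% of tested features. Feature 1872 was dim, at 0.0784 ± 0.0561 in pete1 pete2 and 0.0697 ± 0.0561 in WT (SD, n = 3 each). The part of green tissue content in the ribosomal protein values was not tested.

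**Figure D5:**
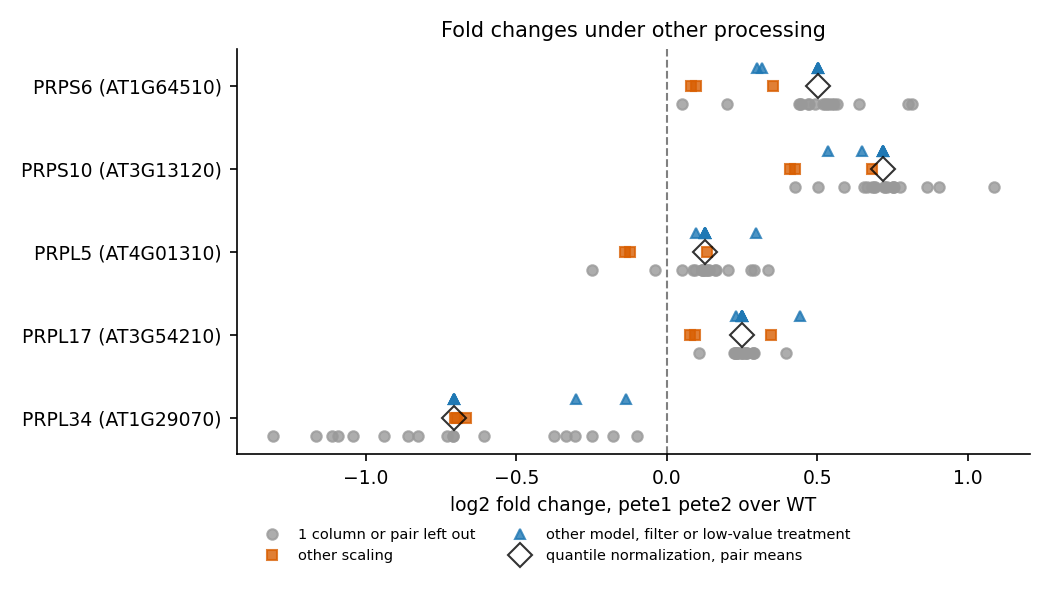
Log2 fold change of pete1 pete2 over WT for each gene under the scaling used (open diamonds), other scalings (squares), other models, filters or treatments of low values (triangles) and with 1 column or pair left out (circles). PRPS6, PRPS10 and PRPL17 stay positive and PRPL34 negative throughout, while PRPL5 lies on both sides of 0.

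The scaling between columns moved the centre of the fold changes. The median log2 fold change of all tested features was -0.27 for unscaled values and -0.26 when columns were scaled to equal totals, against -0.011 after quantile normalization. Relative to that median, PRPS6 was 0.35 with the values as deposited and 0.51 after quantile normalization, PRPS10 0.68 and 0.73, PRPL5 0.13 and 0.14, PRPL17 0.35 and 0.26, and PRPL34 -0.43 and -0.70. Measured in this way, no member changed sign between these 2 settings, though PRPL34 was farther from the median after quantile normalization and PRPL17 nearer to it.

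Features with neighbouring numbers were examined beside each member. Those next to PRPS6 had log2 fold changes of -0.090 and -0.11, those next to PRPS10 0.12 and -0.32, the one next to PRPL5 0.59 and the one next to PRPL17 -0.12. The one next to PRPL34, at or near the floor, had -0.14 and the one next to PRPL29 had -0.51. The neighbour of PRPL5 thus had a larger positive value than PRPL5 itself, and neither neighbour of PRPS6 was positive.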

How the data were processed

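The data were linear intensity values as deposited by the authors, in relative units. For the scanner, image software, background and divisor, no source used here gives details. The 6 members and the gene lists were chosen with earlier results of these data known. Named genes were the members, list genes with a feature, and the genes nearest in profile.

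After quantile normalization of the columns, a floor of 0.0225, the 1st percentile of the deposited values above 0, was set, log2 was taken, and the 2 features of AT2G25870 were averaged, leaving 3438. Columns 1 and 2, 3 and 4, and 5 and 6 were averaged. A fold change that rests on columns at the floor depends on where the floor lies. Features were named where the annotation gave 1 gene: 690 of 692 matched the TAIR10.1 gene table, used for names only.

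The test was limma 3.58.1 under R 4.3.3 (lmFit, eBayes, two-sided, Benjamini-Hochberg over all features, threshold 0.05), and the code was tested on simulated data. With 3 pairs a side, exact permutation gives no p under 0.1. The number of arrays limits the precision. Alternatives covered scaling, low values, dim features, variance, blocks and omissions.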

Additional observations from a re-analysis of the deposited data

How the results depend on the processing

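Of 145 fold changes of the 5 measured members under the alternatives, 141 kept their direction and their side of the threshold. Trended and robust variance, blocks, single columns as samples and removal of dim features left each fitted fold change at its main value. Direction could not turn in these alternatives, so their part of the 141 says nothing about its stability. The other 4 fold changes changed sign, and 0 of the 145 passed limma's test (Benjamini-Hochberg). The 4 were all of AT4G01310 (PRPL5): -0.14 with the values as deposited, -0.12 with scaling to the total, -0.038 without pete1 pete2 columns 1 and 2 and -0.25 without WT columns 1 and 2. With 1 column or pair left out it ranged from -0.25 to 0.34, and AT3G13120 (PRPS10) from 0.42 to 1.09, AT1G64510 (PRPS6) from 0.049 to 0.82, AT3G54210 (PRPL17) from 0.11 to 0.40 and AT1G29070 (PRPL34) from -1.31 to -0.099. Array weights gave -0.14 for AT1G29070, 0.30 for AT1G64510, 0.65 for AT3G13120, 0.30 for AT4G01310 and 0.44 for AT3G54210. The last was the highest value of AT3G54210 in any alternative (limma adjusted p = 0.289). A pseudocount of 0.0872 gave -0.30 for AT1G29070. The number of members called was 0 in every alternative. The dim filters removed AT1G64510 and AT1G29070 (25%) and AT3G13120 as well (50%), so the subunit difference had no value there. With 1 column or pair left out, the subunit difference ranged from 0.20 to 1.04.

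Over all features, 1 was called higher and 0 lower. Counts of higher features were 0 for unscaled values, for columns centred on the median, for columns scaled to equal totals and with the replicate block on the pair number, and 2 without the dimmest 50%. With array weights 1 feature was lower. The 12 columns as separate samples gave 149 higher and 75 lower, with a replicate block 156 and 93, and with the pair as a random block 15 and 4. Of these, all but the random block fit took a pair's columns as independent. With 1 column or pair left out, higher features numbered from 0 to 1 and lower ones from 0 to 1. Deviations of same-numbered pairs of the 2 genotypes had r of 0.32, 0.00056 and 0.39 over features. Differently numbered pairs had r from -0.40 to 0.16. The r values of a pete1 pete2 pair with the WT pairs nearly cancel, so these ranges are not independent of each other. No label states a pairing, so the main fit used none, and a shared effect of pair number was not tested. With the replicate block on the pair number, the limma adjusted p of the 5 members ranged from 0.703 to 0.997. That block changed the SE of PRPL34 from 0.59 to 0.25 and of PRPS6 from 0.51 to 0.27. The SE rose from 0.40 to 0.44 for PRPS10, 0.38 to 0.45 for PRPL5 and 0.16 to 0.18 for PRPL17. Unless a value shows it, the cause was not tested. Background values were not used here, so how far dim features lay above background was not tested.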
